A study of Sus scrofa with 23 samples.

Results

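Bile acid receptors and transporters were followed by their RNA in the cortex of newborn pig kidney. A list of 10 genes was described: GPBAR1 (TGR5), the membrane receptor for bile acids, NR1H4 (FXR), the nuclear receptor, its target NR0B2 (SHP), the uptake carrier SLC10A2 (ASBT), both subunits of the basolateral carrier OST, SLC51A and SLC51B, the hydroxylases CYP27A1 and CYP7B1, and the FGF19 receptor FGFR4 with its partner KLB. GPBAR1 entered the list because it was lower in the libraries labelled CF, so its values against that label are given as a description with no test. The symbol CYP7B1 is not analysed here, which left 9 of the 10 listed genes, out of 26687 genes in all, and all 9 were among the 20921 genes that passed the filter on low counts. Sequenced were the cortices of 11 pigs labelled CFTR-/- (CF), 6 labelled CFTR+/- (HET) and 6 labelled CFTR+/+ (WT), 1 library for each pig. Every pig was untreated and newborn, and pigs with both alleles disrupted came from matings of heterozygotes. WT and HET together form the 12 non-CF libraries. The labels give neither sex nor litter.

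Bile acids are made from cholesterol, mostly in the liver, and the fraction that reaches the urine filtrate is taken back by the proximal tubule through ASBT on the luminal side and OST on the blood side. FXR senses bile acids in the nucleus and raises NR0B2 and both OST genes, while GPBAR1 couples to the stimulatory G protein and raises cyclic AMP. In the gut, FXR also raises FGF19, a hormone that acts on liver cells through FGFR4 and KLB.

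Libraries held 32901194 to 52952229 estimated counts. CFTR RNA ran against the labels: its CPM (counts scaled by library size and TMM factor) were 1.27 to 3.67 in the libraries labelled WT, 9.41 to 17.5 in HET and 12.5 to 23.5 in CF. Which part of CFTR is disrupted is not given in the sources used here, so the level of the whole transcript does not by itself check the labels, and the groups are named below by label only. The second axis of a multidimensional scaling plot separated a first set of 13 libraries (4 WT, 3 HET and 6 CF) from a second set of 10 (2 WT, 3 HET and 5 CF). Within CF and within non-CF the first set held the lower pig numbers, and the labels name no batch. Defining genes of the tissue were abundant, with LRP2, the megalin of the proximal tubule, at a mean of 335 TPM, the deposited level per transcript length. Of the hepatocyte markers, ALB held a mean of 0.444 TPM, APOB 0.401, TTR 1.90, SERPINC1 4.22 and FGB 15.7, the last with 13860 counts in its highest library. In every list of cell type markers 0 genes passed the adjusted test between CF and non-CF by edgeR, where 0.349% of all genes did. At that share lists this short would seldom hold a gene that passed.

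Per length, the 9 genes spanned more than 2 orders of magnitude. Mean levels over 23 libraries were 44.6 ± 14.6 TPM (SD) for SLC51B, 26.4 ± 3.70 for FGFR4, 9.29 ± 4.45 for SLC51A, 8.76 ± 2.76 for NR1H4, 4.54 ± 1.17 for SLC10A2, 2.80 ± 0.826 for CYP27A1, 2.28 ± 0.440 for KLB, 0.599 ± 0.377 for GPBAR1 and 0.249 ± 0.189 for NR0B2. SLC51A and NR1H4 could not be ordered, since SLC51A was the higher of the pair in 12 of 23 libraries. The order of CYP27A1 and KLB held in 17 libraries and that of GPBAR1 and NR0B2 in 19, and each of the remaining neighbours was ordered the same way in at least 21. In Sscrofa11.1 the other members lie on chr5:83607222-83732668 (NR1H4, minus strand), chr6:84225670-84228156 (NR0B2, plus), chr11:71328801-71348779 (SLC10A2, minus), chr13:133851775-133869753 (SLC51A, minus), chr1:163081145-163089491 (SLC51B, plus), chr15:120809886-120852196 (CYP27A1, plus), chr2:80841536-80853791 (FGFR4, minus) and chr8:30653434-30696123 (KLB, plus). SLC51B overlaps RASL12 and LOC110261747, and KLB overlaps RPL9, each on the opposite strand, and FGFR4 overlaps MIR7138 on its own strand. Whether strand was used in the counting is not given in the sources used here, so the values of these members are uncertain to that extent. SLC51B exceeded 92.4% of the tested genes in mean TPM, and GPBAR1 exceeded 14.8%.

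GPBAR1, which lies on chr15:120336196-120339506 of Sscrofa11.1 on the plus strand with 2 exons per transcript and no overlapping gene, was the member chosen for its difference. Its level was 0.890 CPM in the lowest library labelled WT, 1.20 at the median and 1.98 in the highest, and 0.676, 1.15 and 2.18 in HET. In the libraries labelled CF the same values were 0.177, 0.439 and 0.811. Every CF library lay below every WT library, and 10 of 11 lay below all 12 non-CF libraries. The exception, pig CF4 at 0.811 CPM, overlapped HET13 and HET15 at 0.681 and 0.676. Groups without overlap were rare among all genes, at 0.00478% for CF and non-CF and 0.229% for CF and WT, but GPBAR1 was picked on these groups. The fitted log2 difference of CF from non-CF was -1.46, a 2.75-fold lower level, with -1.49 against WT and -1.42 against HET. With any 1 library left out it lay between -1.58 and -1.36. These levels rest on few reads, 6 to 40 counts per CF library and 27 to 101 per non-CF library. In bulk cortex, fewer cells of a type and less RNA per cell cannot be told apart.

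The comparison of HET with WT did not enter the choice of GPBAR1 and was tested. It gave a log2 difference of -0.07 (SE 0.28, 95% CI -0.65 to 0.51), with an adjusted p of 0.964 by edgeR's quasi-likelihood test (Benjamini-Hochberg) and p = 0.604 in an exact two-sided permutation test of 6 against 6 libraries. No difference between HET and WT was detectable, and the interval includes a level lower by its lower bound. The HET libraries were split by set, the first at 0.676, 0.681 and 1.11 CPM and the second at 1.20, 1.44 and 2.18. The WT libraries were not, since the lowest and the second highest of them were both from the second set.

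Within the first set GPBAR1 was 1.14 ± 0.435 CPM (SD, n = 7) in non-CF and 0.488 ± 0.179 (n = 6) in CF libraries, and within the second 1.40 ± 0.479 (n = 5) and 0.401 ± 0.153 (n = 5). The log2 differences were -1.21 and -1.77. Both are part of the contrast on which the gene was chosen and carry no test. Of 2 annotated transcripts, the one of 1666 nt took 91.0% of the GPBAR1 counts in WT, 95.3% in HET and 94.1% in CF. The other transcript, of 1713 nt, reached at most 13.7 estimated counts in a library.

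Macrophages are among the cells known to carry GPBAR1, and 0 of the 8 tested macrophage markers passed the adjusted test between CF and non-CF, where 0.349% of all genes did, with 1 at an unadjusted p under 0.05, where 13.7% of all genes were (AIF1, log2 difference -0.30, edgeR adjusted p = 0.338). Summed over the 9 listed markers, macrophage RNA ran from 138 to 206 CPM in WT, 134 to 183 in HET and 125 to 245 in CF, so the CF range covered the others. MARCO was at 0 in at least 1 library, reached at most 22 counts and did not pass the filter. Its mean was 0.109 ± 0.123 CPM (SD) in non-CF and 0.0302 ± 0.0341 in CF. Of the 8 tested macrophage markers 4 had a log2 difference above 0 and 4 below. Distal markers (thick ascending limb and distal convolution) had a log2 difference under 0 for 5 of 6 genes, none past the adjusted test. CALB1, a calcium-binding protein, had -1.40, SLC12A3, the thiazide-sensitive cotransporter, -0.64 and SLC12A1, the loop diuretic target, -0.28, with edgeR adjusted p of 0.0636, 0.0843 and 0.0966, and for each of them 0 of 11 CF libraries lay above the non-CF median. UMOD, the main urinary protein of the thick limb, went the other way at 0.28 (adjusted p = 0.544), and KCNJ1 and CLDN16 had -0.11 and -0.09. The summed level of the 6 was 1450 to 2198 CPM in WT, 1304 to 2400 in HET and 1242 to 1922 in CF, and their part in the GPBAR1 difference was not tested.

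Of 4 genes next to GPBAR1, 0 passed the adjusted test by edgeR, where 0.349% of all genes did, and 1 (ARPC2) had an unadjusted p under 0.05, where 13.7% did. They lie within 50000 bases: AAMP, 259 bases away on the opposite strand, PNKD at 6035, ARPC2 at 7401 and TMBIM1 at 9234 bases. Their log2 differences of CF from non-CF were -0.08, -0.08, -0.15 and 0.01, with edgeR adjusted p of 0.644, 0.822, 0.322 and 0.971. CYP27A1 lies on the same chromosome, 470380 bases downstream.

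By pattern over all 23 libraries, the genes most like GPBAR1 in log2 CPM were CCNB3 (Pearson's r = 0.837), AK5 (0.832), NT5C1A (0.823), UBASH3B (0.819) and the copy of PLCD4 annotated as PLCD4_1 (0.817). These likenesses include the difference between the labels, because all 5 were also lower in CF (log2 differences -0.73, -0.57, -0.69, -0.41 and -0.42). With the mean of each label subtracted, the nearest were MERTK (0.733), TMEM268 (0.732), PROB1 (0.713), CREB3L4 (0.706) and LOC110256637 (0.703), over the same 23 libraries. MERTK is a receptor for the uptake of dying cells, found on macrophages among others. A search over all genes that passed the filter can find high r by itself, and no test was run on these genes. GPBAR1 held 6 to 101 counts per library. For the other 8 members r with GPBAR1 ran from -0.23 for SLC10A2 to 0.31 for KLB after subtraction.

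**Figure D1:**
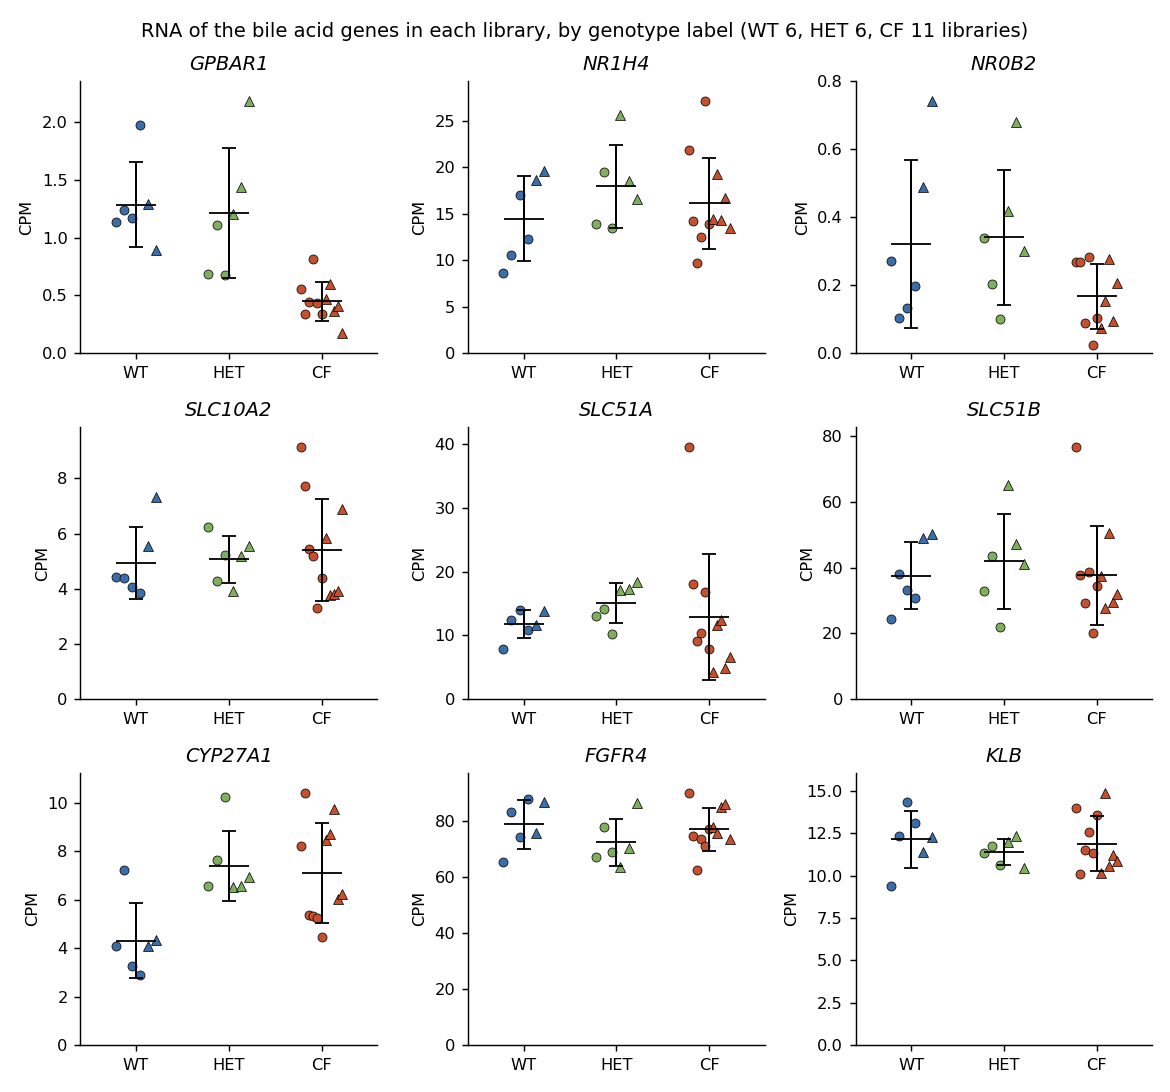
CPM (vertical axes, linear, from 0) of the 9 genes in each of 23 libraries by genotype label (horizontal axes), with first-set libraries as circles and second-set libraries as triangles and each label's mean ± SD as a bar with whiskers. GPBAR1 in CF (0.177 to 0.811 CPM) lies below every WT library, CYP27A1 is lowest in WT, and 1 CF library stands high for SLC51A at 39.5 CPM.

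Among the other 8 members no difference between CF and non-CF passed the adjusted test: 0 of 8, where 0.349% of all tested genes passed by edgeR, and 0 by DESeq2, which gave NR0B2 no adjusted p, by limma-voom and by the exact Mann-Whitney U test. At an unadjusted p under 0.05 the count was 1 of 8, against 13.7% of all genes. That 1 was NR0B2, which the filter kept through its higher group, so nothing is read from its p. The median log2 difference of the 8 was 0.0038, beside -0.00052 over all tested genes. NR1H4 was 8.67, 14.7 and 19.6 CPM (lowest, median, highest) in WT, 13.5, 17.6 and 25.6 in HET and 9.66, 14.3 and 27.1 in CF. The 3 ranges overlapped, and the log2 difference of CF from non-CF was -0.01 (95% CI -0.34 to 0.33, edgeR adjusted p = 0.993).

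**Figure D2:**
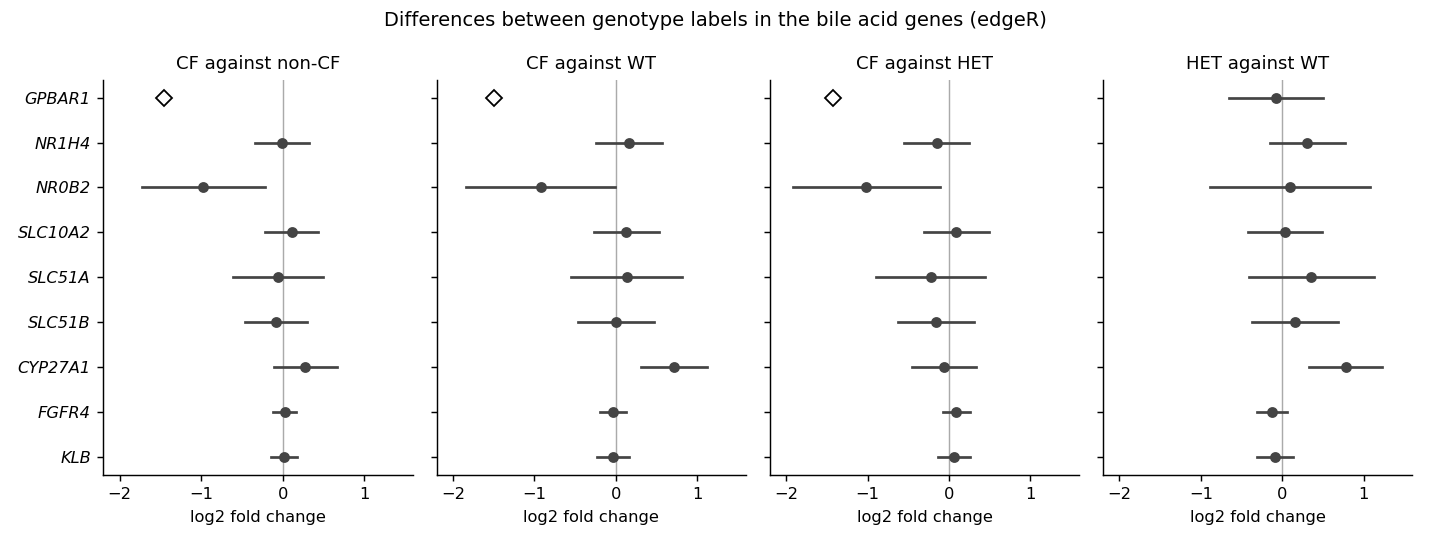
Log2 differences (horizontal axes) of the 9 genes (vertical axis) in the 4 comparisons of labels, as points with 95% intervals from edgeR. GPBAR1 is an open diamond with no interval in the 3 comparisons with CF because it was chosen on them, at -1.46, -1.49 and -1.42, and the intervals of CYP27A1 in CF or HET against WT exclude 0 without passing the adjusted test, while nothing is read from those of NR0B2, which the filter kept through its higher group.

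NR0B2, a repressor that FXR raises, had the lowest level of the members and, after GPBAR1, the largest log2 difference of CF from non-CF. Levels were 0.103, 0.234 and 0.742 CPM in WT, 0.1001, 0.321 and 0.681 in HET and 0.0231, 0.154 and 0.284 in CF. All 11 CF libraries lay below the non-CF median and 4 lay below every non-CF library. The log2 difference was -0.97 (SE 0.37), with an adjusted p of 0.220 by edgeR, so the call was not made. Only 1 to 35 counts per library support it, 2 CF libraries held 3 counts or fewer, and the gene failed the filter on low counts in 7 of the 23 fits that left out a library, each time a non-CF one. It was therefore kept through the group in which it was higher, and its p-values are no support for a difference. With no filter the log2 difference was also -0.97, with an edgeR adjusted p of 0.252.

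The NR0B2 difference was larger in the second set, in value. There the 5 non-CF libraries held 0.527 ± 0.183 CPM (SD) and the 5 CF libraries 0.161 ± 0.0834, without overlap (0.302 to 0.742 against 0.0735 to 0.278), which 4.64% of all genes also showed in that set. No member was free of overlap in the first set, where 0.631% of all genes were. In that set the NR0B2 means were 0.193 ± 0.0898 (n = 7) and 0.173 ± 0.114 (n = 6). The log2 difference in the second set was -1.68, given as a value because the gene passed the filter there and missed it in the first set, which could not be fitted. The difference between the sets was -1.54 (SE 0.62), given as a value for the same reason. The CF means were close between sets, and the non-CF mean was higher in the second. Within the first set 0 of 7 members passed by edgeR (0% of all genes) and 0 had an unadjusted p under 0.05 (9.31%). Within the second, the 7 members other than NR0B2 gave 0 past the adjusted test (2.27% of all genes) and 4 at an unadjusted p under 0.05 (17.4%), CYP27A1 higher and NR1H4, SLC51A and SLC51B lower in CF. NR0B2 itself passed there, but through the filter described above.

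SLC51A and SLC51B encode the 2 chains of OST, which are needed together at the basolateral membrane. SLC51A was 7.93, 11.997 and 13.9 CPM in WT, 10.3, 15.6 and 18.4 in HET and 4.26, 10.4 and 39.5 in CF, and SLC51B was 24.3, 35.6 and 50.3, then 21.97, 42.2 and 65.0, then 20.1, 34.4 and 76.7. The groups overlapped for both, and CF1 was the highest CF library, with the next at 18.1 for SLC51A and 50.7 for SLC51B. CF1 was also highest for SLC10A2 and FGFR4 and had the highest sum of 9 proximal tubule markers (14763 CPM, beside 7468 to 10971 in WT and 8602 to 12497 in HET), whose part in these levels was not tested. CF5 was lowest for SLC51B, NR0B2 and SLC10A2, highest for NR1H4 and highest for the summed macrophage (245 CPM) and hepatocyte (333 CPM) markers, and their part was not tested either. Over all libraries neither subunit passed the test for the label CF, at -0.06 (95% CI -0.61 to 0.50) for SLC51A and -0.08 (-0.46 to 0.30) for SLC51B, with edgeR adjusted p of 0.961 and 0.910.

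Split by set, the differences of both subunits had opposite signs, and in the first set both were near 0 without CF1. For SLC51A the non-CF and CF means were 11.8 ± 2.24 and 16.97 ± 11.8 CPM (SD, n = 7 and 6) in the first set, and 15.7 ± 2.82 and 7.94 ± 3.82 (n = 5 and 5) in the second. For SLC51B they were 32.1 ± 7.41 and 39.4 ± 19.5, then 50.5 ± 8.88 and 35.5 ± 9.23. The CF minus non-CF log2 differences were 0.52 and -0.97 for SLC51A and 0.30 and -0.50 for SLC51B. Their difference between sets was -1.50 (SE 0.46, unadjusted p = 0.00323, edgeR adjusted p = 0.230) for SLC51A and -0.80 (SE 0.33, unadjusted p = 0.0234, adjusted p = 0.392) for SLC51B. Without CF1 the values were -1.06 and -0.50, and the first-set CF means were 12.5 ± 4.69 CPM for SLC51A and 31.99 ± 7.61 for SLC51B (SD, n = 5), close to the non-CF means (left out after the data were seen). For NR1H4 the difference between sets was -0.62 (unadjusted p = 0.0508, adjusted p = 0.493). Of the 7 members other than GPBAR1 and NR0B2, 0 passed the adjusted test of a difference between sets by edgeR, where 0.0191% of all genes did, and 0 by DESeq2. The count at an unadjusted p under 0.05 was 2 (SLC51A and SLC51B), beside 10.1% of all genes, both toward a lower CF level in the second set.

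**Figure D3:**
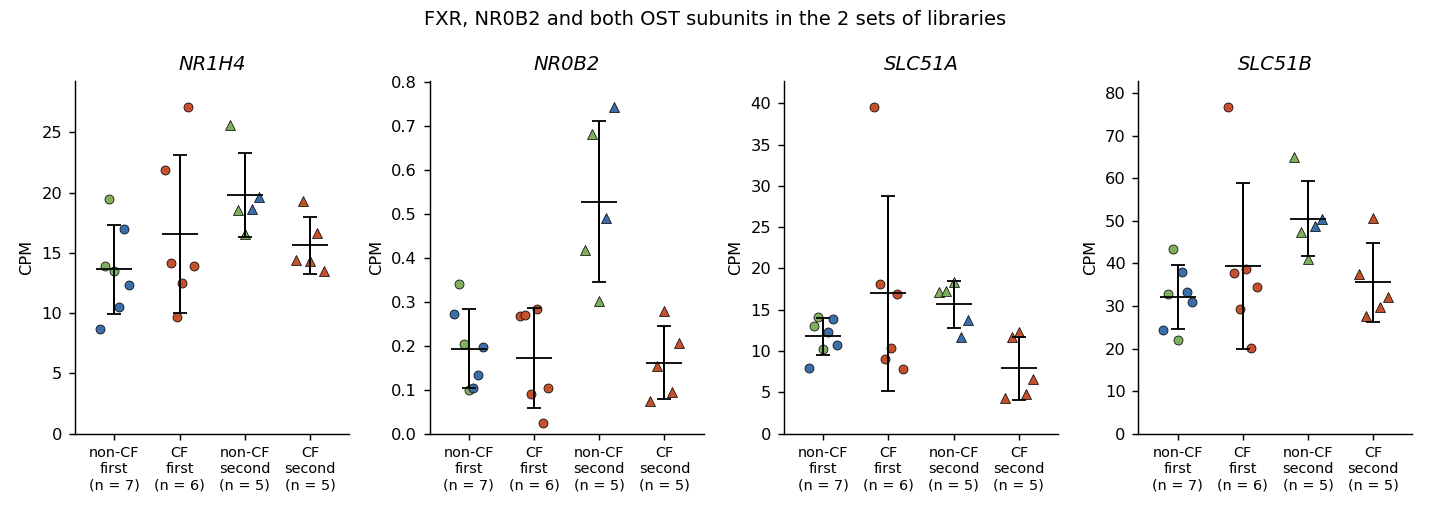
CPM (vertical axes, linear, from 0) of NR1H4, NR0B2, SLC51A and SLC51B in non-CF and CF libraries of the first and second set, with each group's mean ± SD (blue WT, green HET, red CF). For NR0B2 the 5 non-CF libraries of the second set (0.302 to 0.742 CPM) lie above every CF library of that set and overlap the first-set non-CF libraries, which reach 0.341 CPM.

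NR0B2 and SLC51B shared a pattern within labels. After the mean of each label was subtracted from log2 CPM, Pearson's r was 0.675 over 23 libraries (permutation p = 0.000260, adjusted p = 0.00936) and Spearman's rho was 0.643 (permutation p = 0.00115, adjusted p = 0.0414), the only pair of 36 to pass on r. Without the 2 libraries farthest out in NR0B2, r was 0.588. Within sets it was 0.597 (n = 13) and 0.368 (n = 10), and with the mean of each label in each set subtracted r was 0.542 (permutation p = 0.00720, adjusted p = 0.130), so the call did not hold once the sets were separated. NR1H4 and SLC51A had r = 0.476 and rho = 0.555, the subunits SLC51A and SLC51B had r = 0.483 and rho = 0.441, and neither passed the adjustment over pairs (adjusted permutation p = 0.186 for each r). The values of a pair come from the same library and share its depth. NR0B2 entered the pairs only through the filter described above, with 1 to 35 counts per library. The p-values of its pairs are therefore given as a description.

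**Figure D4:**
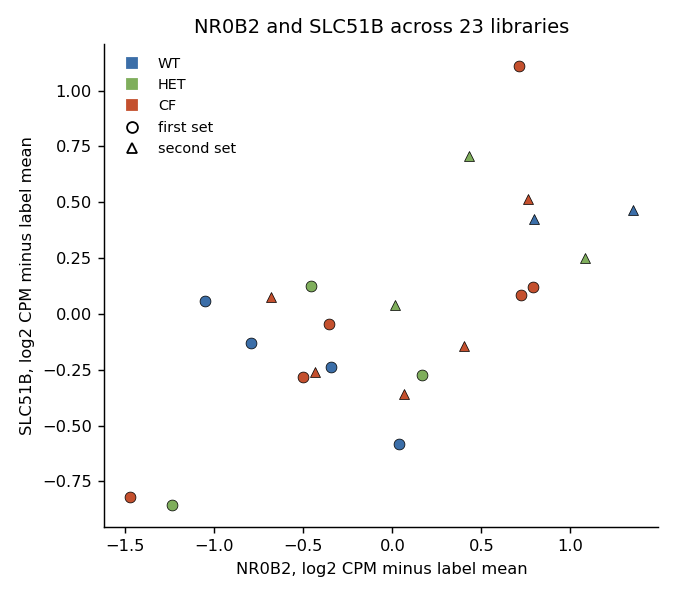
SLC51B (vertical axis) against NR0B2 (horizontal axis) in 23 libraries, both as log2 CPM after subtraction of the mean of the label, with circles for the first and triangles for the second set. The points rise together (r = 0.675 over all libraries, 0.597 in the first set and 0.368 in the second).

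The starts of these 2 genes are shown because they formed that pair. NR0B2 starts on chr6 and SLC51B on chr1, and the windows of 300 bases before each start are chr6:84225370-84225669 and chr1:163080845-163081144, both on the plus strand of Sscrofa11.1 (RefSeq). Capitals mark TCAAGG, the core that NR5A2 binds, and TATAAA, the letters of the TATA box (TTTATA where they lie on the other strand).
NR0B2: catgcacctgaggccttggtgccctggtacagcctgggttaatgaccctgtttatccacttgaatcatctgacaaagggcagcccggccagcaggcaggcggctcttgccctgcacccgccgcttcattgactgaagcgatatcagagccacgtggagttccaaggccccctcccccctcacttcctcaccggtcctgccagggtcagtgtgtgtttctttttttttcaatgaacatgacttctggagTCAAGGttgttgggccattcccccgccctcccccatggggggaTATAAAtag
SLC51B: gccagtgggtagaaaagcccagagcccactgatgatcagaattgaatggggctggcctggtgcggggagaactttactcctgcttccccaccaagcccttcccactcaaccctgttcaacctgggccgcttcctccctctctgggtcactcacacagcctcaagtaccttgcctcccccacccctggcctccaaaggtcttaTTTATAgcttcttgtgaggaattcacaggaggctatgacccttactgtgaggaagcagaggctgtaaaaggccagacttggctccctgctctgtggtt
NR0B2 held TCAAGG at -52 and TATAAA at -9 from its start, and SLC51B held TATAAA on the other strand at -98. TATAAA also lay in the windows of SLC10A2, CYP27A1 and KLB, and TCAAGG in that of SLC51A. These are matches of letters, and their use as binding sites was not tested. TCAAGG occurred in 12.6% of 19531 promoter windows of the same length and TATAAA in 11.9%. The inverted repeat of AGGTCA with a single spacer base (IR1) that FXR binds was searched with up to 2 mismatches and occurred in 1.38% of the windows, AGGTCA in 14.6%, the palindromic HNF1 motif in 0.0102% and TGACGTCA, the cyclic AMP response element, in 1.76%, on both strands. None of the windows of the 8 members other than GPBAR1 held any of these 4 within these limits, and AGGTCA lies inside the repeat. A likeness to the repeat with more than 2 mismatches was not counted, such as gggttaatgaccc in the NR0B2 window.

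SLC10A2 is the luminal carrier of the pathway. Its level was 3.85, 4.41 and 7.31 CPM in WT, 3.91, 5.199 and 6.24 in HET and 3.30, 5.17 and 9.14 in CF. The groups overlapped, with 6 CF libraries above and 5 below the non-CF median. The log2 difference was 0.11 (95% CI -0.21 to 0.43, edgeR adjusted p = 0.824).

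CYP27A1, a mitochondrial hydroxylase of the pathway that makes bile acids outside the classical one, was the member with a label pattern of its own. WT libraries held 2.89, 4.08 and 7.24 CPM, HET libraries 6.54, 6.75 and 10.2, and CF libraries 4.47, 6.22 and 10.4. All 6 HET and all 11 CF libraries lay above the WT median. The WT library WT16 at 7.24 CPM lay inside the HET and CF ranges, and the other WT libraries were at most 4.32. The log2 difference was 0.72 for CF against WT (SE 0.20, 95% CI 0.31 to 1.13, unadjusted p = 0.00121, edgeR adjusted p = 0.0885) and 0.78 for HET against WT (SE 0.22, 95% CI 0.33 to 1.23, unadjusted p = 0.00155, edgeR adjusted p = 0.445). CF and HET did not separate, at -0.06 (95% CI -0.45 to 0.33, adjusted p = 0.949).

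In an exact two-sided permutation test of 6 HET against 6 WT libraries the CYP27A1 difference gave p = 0.0108, where the smallest possible is 0.00216. With DESeq2 CF against WT passed, with an adjusted p of 0.0156, where 2.75% of all genes did, and with 1 library left out edgeR gave 0.63 to 0.93 with adjusted p from 0.0490 (without WT16) to 0.203. Against all non-CF libraries the log2 difference was 0.28 (95% CI -0.11 to 0.67, edgeR adjusted p = 0.556). For CF against WT, 0 of the 8 members other than GPBAR1 passed the adjusted test by edgeR (0.349% of all genes) and 2 of 8 had an unadjusted p under 0.05 (14.1% of all genes), CYP27A1 higher and NR0B2 lower. For CF against HET 0 members passed by edgeR (0% of all genes) and 0 by DESeq2 (65 genes in all), and 1 had an unadjusted p under 0.05 by edgeR (9.89%, NR0B2). In both comparisons NR0B2 is counted only through the filter described above, and nothing is read from its p. For HET against WT 0 of 9 passed by edgeR (0.00478%) and 0 by DESeq2 (33 genes in all), and 1 had an unadjusted p under 0.05 by edgeR (7.99%, CYP27A1). HET and WT overlapped for all 9 members, where 0.703% of all genes did not overlap.

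FGFR4 and KLB, the receptor tyrosine kinase and its co-receptor for FGF19, were the steadiest members. FGFR4 was 65.3, 79.6 and 88.0 CPM in WT, 63.7, 69.6 and 86.7 in HET and 62.4, 75.8 and 90.2 in CF, and KLB was 9.40, 12.3 and 14.3, then 10.4, 11.5 and 12.3, then 10.1, 11.4 and 14.9. Their coefficients of variation within CF were 10.1% and 13.8%, beside 77.0% for SLC51A and 57.5% for NR0B2. The NR0B2 value rests on 1 to 14 counts per CF library and includes counting error. The log2 differences of CF from non-CF were 0.03 (95% CI -0.11 to 0.16) and 0.01 (-0.15 to 0.17), with edgeR adjusted p of 0.921 and 0.968. These intervals were the narrowest of the list.

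In 4 lists of other bile acid genes no gene passed the adjusted test between CF and non-CF, where 0.349% of all tested genes did, so lists of this size would seldom hold one. In synthesis and conjugation, 11 of 14 listed genes were tested, 0 passed the adjusted test by edgeR and 7 were above 0, with a median log2 difference of 0.08. The 4 with the smallest p were CYP8B1 (0.60, adjusted p = 0.305 by edgeR), AKR1D1 (0.11), ACOX2 (0.08) and SLC27A5 (-0.23), and the most abundant were SCP2 and HSD17B4 at 67.5 and 59.6 TPM. CYP7A1, the entry enzyme of the classical pathway, held 171 to 397 counts per library and was named outside the rule after its values had been seen. Among 7 tested of 8 other transporters, 0 passed and the median was -0.01. These included FABP6 (-0.46), ABCC3 (-0.16), SLC10A1 (0.11) and SLCO1B3 (0.11), with ABCC2 and ABCC4 the most abundant at 33.02 and 24.5 TPM.

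Of 11 other receptors and transcription factors 0 passed by edgeR and 2 had an unadjusted p under 0.05, where 13.7% of all genes did. NR1I2 (PXR), a sensor of foreign compounds and bile acids, was 11.8 ± 5.51 CPM (SD, n = 12) in non-CF and 19.3 ± 8.58 (n = 11) in CF, above the non-CF median in 10 of 11 CF libraries (0.71, SE 0.24, edgeR adjusted p = 0.165). NR1H3 (LXR alpha) had 0.15 (adjusted p = 0.263), RXRB 0.14 and NR5A2 -0.15, and HNF4A was the most abundant at 118 TPM. In the FGF19 and klotho arm, 5 of 6 listed genes were tested, 0 passed and 2 had an unadjusted p under 0.05, where 13.7% of all genes did, both above 0, FGFR2 (0.15, adjusted p = 0.240) and FGFR1 (0.19, adjusted p = 0.352) having the smallest p, with FGF21 at -0.44 and KL, the renal klotho, at 0.09. The most abundant of these were KL and FGFR3 at 53.1 and 28.9 TPM.

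Downstream of GPBAR1, 1 of 14 genes of cyclic AMP signalling passed the adjusted test by edgeR and it rose, where 0.349% of all genes passed, and 3 of 14 had an unadjusted p under 0.05, where 13.7% of all genes did. CREB1, the transcription factor that protein kinase A phosphorylates, was 71.5 ± 4.99 CPM (SD, n = 12) in non-CF and 89.3 ± 10.4 (n = 11) in CF libraries, with a log2 difference of 0.32 (SE 0.06) and an edgeR adjusted p of 0.0197. All 11 CF libraries lay above the non-CF median. The list was chosen with earlier results of these data known, so the call may not be independent of that choice. Within the first set alone 0 of all genes passed the adjusted test by edgeR, so CREB1 did not pass there. The median of the list was -0.01, beside -0.00052 over all tested genes, and GNAS, the stimulatory G protein, was -0.01 at 506 TPM, while PPARGC1A, the metabolic coactivator, was -0.01 at 45.3 TPM.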

How the data were processed

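Kidney cortex of 23 pigs was studied by ribosomal RNA-depleted, stranded total RNA-Seq on a NovaSeq instrument. The authors pseudoaligned reads to Sscrofa11.1 with kallisto and deposited, per transcript, an estimated count and a TPM (divided by effective transcript length and scaled within a library). One noncoding transcript took 42.1% to 53.2% of each library's TPM, so TPM served only for levels between genes and for an alternative of the pair correlations. Estimated counts of 77689 transcripts were summed per gene symbol and rounded, since 64.0% of the values were not whole. A floor of 3 counts lay between 0.0577 and 0.0884 CPM and covers counting error only.

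All 20921 genes passing filterByExpr were fitted with edgeR 4.0.16 (R 4.3.3; TMM, quasi-likelihood F test, Benjamini-Hochberg over all of them, limit 0.05): CF against non-CF, the 3 labels pairwise in one fit of all libraries, and the label by library set term. CF is the minuend of each difference, and HET in HET against WT. Log2 CPM used a prior count of 2. Correlations used 100000 permutations. The study's Mann-Whitney U test was repeated with at least 5 counts in 47% of libraries and a pseudocount of 0.5. The steps were tested on simulated data. DESeq2 1.42.0, limma 3.58.1, other normalizations and filters, and each library left out were alternatives, with robust spread estimation added after the data were seen. Python 3.11.15, scipy 1.17.1, pandas 2.3.3, pysam 0.24.0 and matplotlib 3.10.9 were used.

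Genes were named by a rule: the listed members, CFTR, genes within 50000 bases of GPBAR1, the 5 most correlated with it, and in each list those passing the adjusted test, otherwise the 4 with the smallest p, plus the 2 most abundant. Marker genes were named where their list is described. The members and lists were chosen with earlier results of these data known. Motifs were searched on both strands. The window before GPBAR1 is not reported here. TCAAGG and TATAAA were added after the windows had been seen.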

Additional observations from a re-analysis of the deposited data

Results flagged for a closer look

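Within the groups of 6, 3 values stood apart from the others by Dixon's test, among 18 groups of a gene and a label. The gap to the nearest library, as a share of the group's range, exceeded the limit of 0.625. The library WT18 held 1.98 CPM of GPBAR1, the nearest WT library 1.29 (share 0.631). For CYP27A1 the library WT16 held 7.24 CPM, the nearest 4.32 (0.670), and HET15 held 10.2 CPM, the nearest 7.65 (0.699). Chance alone picks about 1 in 20 groups. The 11 CF libraries were too many for this test. Without WT18 the GPBAR1 log2 difference of HET from WT was 0.09.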

How the results depend on the processing

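Across the members, 227 values under alternatives other than leaving out a library kept their direction and side of the threshold, and 10 changed sign. For CF against non-CF the members passing the adjusted test were 0 overall and 1 in the second set alone, NR0B2, which the filter kept through its higher group. For CF against WT they were 0 by edgeR, 1 by DESeq2 (CYP27A1), and 0 to 1 with a library left out, the 1 being without WT16. Pairs passing on r were 1, 2 with log2(TPM + 0.1), and 0 with label means within sets subtracted. NR0B2 had no value in the first set and no adjusted p by DESeq2 in 3 comparisons.

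Sign changes of CF against non-CF were NR1H4 0.0092 with set as a term and 0.28 in the first set, SLC51A 0.52 and SLC51B 0.30 in the first set, SLC10A2 -0.18 and KLB -0.011 in the second set, and by Mann-Whitney medians CYP27A1 -0.087 and KLB -0.041. For SLC51B in CF against WT they were -0.039 with upper-quartile scaling and -0.0013 with no filter. The cause was not tested. With 1 library left out, CF against non-CF ranged from -0.11 to 0.072 (NR1H4), -0.39 to 0.035 (SLC51A), -0.24 to 0.0071 (SLC51B) and -0.026 to 0.043 (KLB). CF against WT ranged from -0.20 to 0.23 (SLC51A), -0.16 to 0.10 (SLC51B) and -0.089 to 0.023 (KLB), and CF against HET from -0.011 to 0.16 (SLC10A2), -0.31 to 0.013 (SLC51B) and -0.13 to 0.056 (CYP27A1). HET against WT ranged from -0.32 to 0.092 (GPBAR1), -0.10 to 0.27 (NR0B2), -0.032 to 0.19 (SLC10A2) and -0.011 to 0.29 (SLC51B).

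Over all genes, CF against non-CF called 73 by edgeR, 488 by DESeq2, 148 with set as a term, 0 and 473 in the first and second sets, 46 by limma-voom, 45 with EIF1AY as a covariate, 47 with robust spread (added after the data were seen), and 17 (without HET21) to 203 (without CF4) with a library left out. Upper-quartile scaling turned 51 higher and 22 lower into 48 and 53. CF against WT called 73, against 576 by DESeq2, 139 with upper-quartile scaling, 186 with set as a term and 20 (without WT12) to 203 (without CF4) with a library left out. CF against HET called 0, and 65 by DESeq2, HET against WT 1 and 33, and the difference between sets 4 and 153, or 1 to 91 with a library left out, the 91 without CF1. No paired analysis was possible because the pig numbers are not shared between labels. Few reads limit GPBAR1 and NR0B2.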
